A study of Homo sapiens with 2 samples.

Results

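The matrix metalloproteinases (MMP), the ADAM and ADAMTS proteinases and their tissue inhibitors (TIMP) were examined in RNA-seq of SK-N-AS, a human neuroblastoma line without MYCN amplification. Gene symbols of the form MMP, ADAM or ADAMTS followed by a number, and TIMP1 to TIMP4, were taken from the deposited table, which gave 67 genes among 59429 symbols: 22 MMP, 22 ADAM, 19 ADAMTS and 4 TIMP genes. A symbol with several rows was read from the row of highest summed level. The study asked how expression differs when STRAP, the serine-threonine kinase receptor-associated protein, is knocked out. RNA of the parental culture (AS WT) and of STRAP knockout cells (AS STRAP KO) was measured, both untreated, with 1 sample and 1 column of values deposited for each, called a library here. Whether biologic replicates were pooled into a column is not known. The AS STRAP KO cells descend from 1 sorted cell that had received a plasmid carrying Cas9, GFP and a guide RNA, so they are a clone, and the parental culture is not. With 1 library per condition, no difference given here has a replicate check, and the knockout cannot be told apart from other differences between a clone and its parental culture.

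MMPs are zinc-dependent enzymes that cut collagens and other proteins of the extracellular matrix, and they are secreted or held at the cell membrane as proforms that must be activated. ADAMs are membrane proteins, of which the catalytically active members release the outer parts of growth factors, cytokines and adhesion molecules, while ADAMTS enzymes are secreted and cut proteoglycans, procollagens and other matrix proteins. TIMPs bind the active site of MMPs and block them, and TIMP3 also inhibits several ADAM and ADAMTS enzymes. In neuroblastoma, as in other tumours, the MMPs are known for their part in invasion.

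Levels were given by the authors as FPKM, the reads per kilobase of transcript scaled to the mapped reads of the library, so that levels can be compared between genes. A gene counted as expressed if 1 or both libraries reached 1 FPKM, and as lower or higher where its level in AS STRAP KO divided by that in AS WT was at most 0.5 or at least 2. The comparison of the family between the libraries showed that 28 of the 67 genes were expressed, of which 9 (32.1%) were lower in AS STRAP KO, 5 (17.9%) were higher and 14 were neither. Over all 13527 expressed rows of the table, 10.6% were lower and 8.31% were higher by the same limits. The median log2 ratio of the 28 genes was 0.02, beside 0.00 for all expressed rows. Among the 24 family genes that reached 1 FPKM in both libraries, 6 (25.0%) were lower and 4 (16.7%) were higher, against 5.74% and 4.87% of the 11846 rows that met this filter. With no filter on low values 26 genes were lower, 9 were higher and the median was -0.71. No share over all rows was computed for that setting. Over all rows under 1 FPKM in both libraries, 6512 had the larger value in AS WT and 4389 in AS STRAP KO. Other scalings shifted every log2 ratio by -0.10 to 0.15. The genes that differed lay on both sides, and the family's summed level was nearly equal, at 1385 FPKM in AS WT against 1380 FPKM in AS STRAP KO. This sum adds enzymes and inhibitors, and TIMP1 alone had 548 FPKM in both libraries. From AS WT to AS STRAP KO, the MMP sum was 386 and 292 FPKM and the ADAM sum was 242 and 327 FPKM. The ADAMTS and TIMP sums were similar in both libraries.

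**Figure D1:**
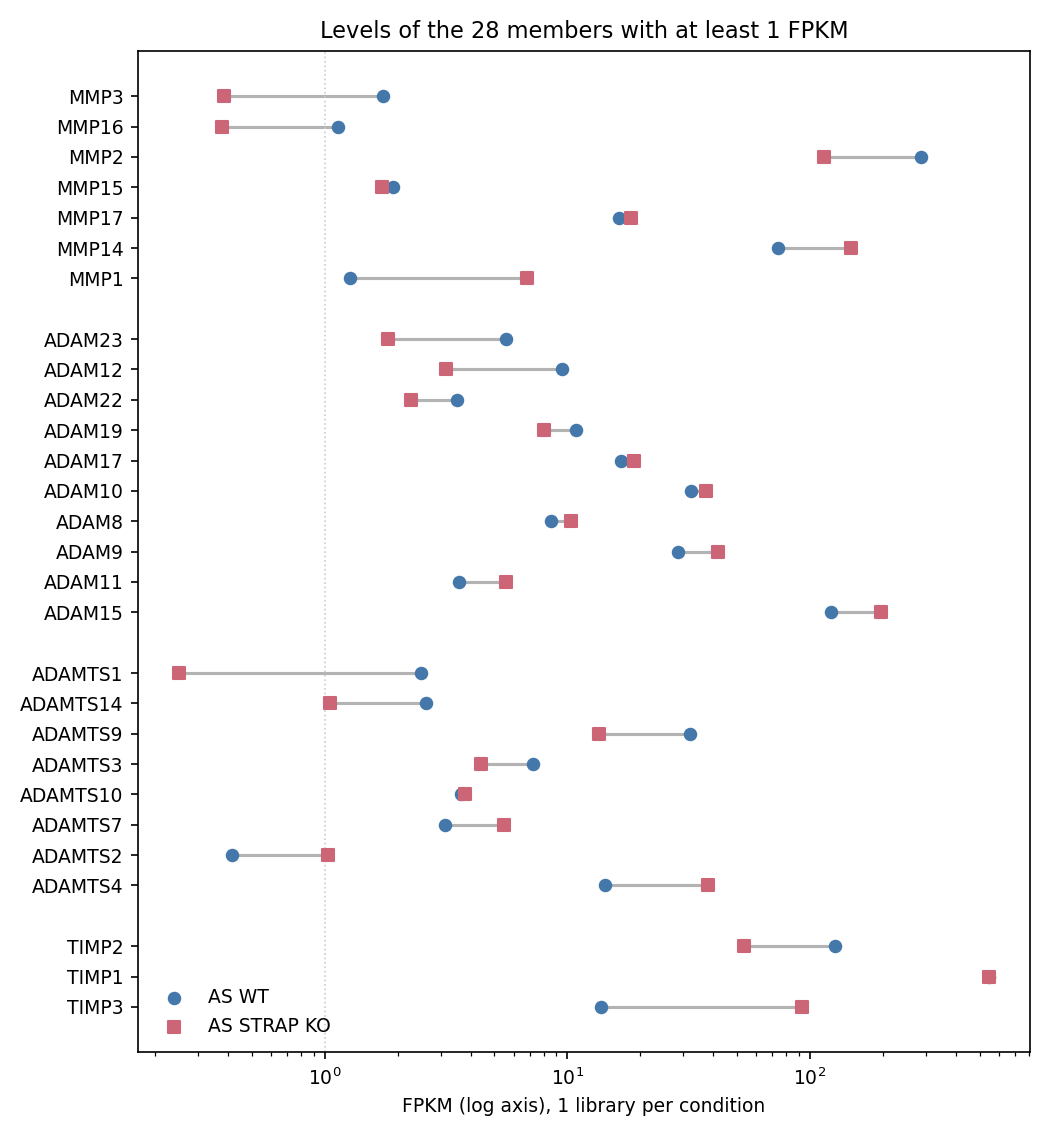
Level of each of the 28 expressed genes in AS WT (circles) and AS STRAP KO (squares), in FPKM on a log axis, grouped by class and ordered by ratio within it, with a dotted line at 1 FPKM. MMP2 and TIMP2 lie lower in AS STRAP KO, MMP14 and TIMP3 lie higher, and the TIMP1 symbols coincide at 548 FPKM.

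STRAP itself, the targeted gene, gave a log2 ratio of -0.45, from 244 FPKM in parental cells to 179 FPKM in the knockout. This level counts reads over the whole transcript and does not measure the edit or the protein. Of 12 adrenergic neuroblastoma markers, 7 were expressed, among them HAND2, while TH, DDC and CHGA were listed at 0 in both libraries, and all 8 mesenchymal markers were expressed. Endothelial markers (0 of 6 expressed, summing to 0.504 and 0.902 FPKM) gave almost no signal. Of 6 leukocyte markers 2 were counted as expressed, CD14 and CD68. The row of CD68 also holds EIF4A1, SENP3 and SENP3-EIF4A1, so its level (2302 and 2436 FPKM) cannot be assigned to CD68. The leukocyte genes PTPRC, CD3E and MS4A1 and the Schwann cell genes S100B and SOX10 were listed at 0 in both libraries. Of 9 fibroblast markers, 8 were expressed and 6 of them (75.0%) were lower in AS STRAP KO, against 10.6% of all expressed rows. COL3A1, DCN and FAP among these reached 1 FPKM in AS WT only. Of the 5 that reached it in both libraries, 3 (60.0%) were lower, against 5.74% of such rows. DCN (2.27 FPKM in AS WT) was listed at 0 in AS STRAP KO, as was COL1A2, which was under the limit (0.788 FPKM in AS WT). The list's summed level was nevertheless 839 FPKM in parental cells and 938 FPKM in the knockout, most of it COL1A1. MMP2, TIMP2 and TIMP3 are genes that fibroblasts also express, and the part of these markers in the results was not tested. In RNA of a whole culture, fewer cells of a type and less RNA per cell cannot be told apart.

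Of the collagenases, which cut fibrillar collagens, MMP1 was the only one expressed. MMP1 had 1.27 FPKM in AS WT against 6.79 FPKM in AS STRAP KO, 5.35-fold higher (log2 ratio 2.42). The gene has 1 annotated transcript, and these levels correspond to an estimated 59.0 and 321 reads. MMP8 and MMP13, the other two collagenases, had 0.125 and 0.0400 FPKM in AS WT and were listed at 0 in AS STRAP KO.

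MMP2, the gelatinase that cuts type IV collagen and denatured collagens, had the highest level of the 22 MMP genes in AS WT. Its position on GRCh38 is chromosome 16, 55389700 to 55506691, plus strand. MMP2 had 288 FPKM in the parental culture and 114 FPKM in the clone, 2.52-fold lower (log2 ratio -1.33). Among the 28 expressed genes it ranked 2 in AS WT and 4 in AS STRAP KO. MMP9, the other gelatinase, was below 1 FPKM, with 0.232 FPKM in parental cells and 0.841 FPKM in the knockout, or an estimated 13.0 and 48.0 reads. The gelatinases thus differed in opposite directions, with MMP2 far above MMP9 in both libraries.

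Of the stromelysins, which have broad matrix substrates and can activate other pro-MMPs, MMP3 had 1.74 FPKM in AS WT against 0.384 FPKM in AS STRAP KO, 4.54-fold lower (log2 ratio -2.18). Depending on the transcript, these levels correspond to 4.40 to 74.3 reads in AS WT against 0.985 to 16.6 in AS STRAP KO. MMP10 had 0.122 FPKM and 0.0491 FPKM, and MMP11 was listed at 0 in both libraries.

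MMP1 and MMP3 belong to a cluster of 9 MMP genes that spans 435 kb of chromosome 11, from 102520508 to 102955732, all on the minus strand. In order of position these are MMP7, MMP20, MMP27, MMP8, MMP10, MMP1, MMP3, MMP12 and MMP13. The neighbours MMP1 (102789401 to 102798160) and MMP3 (102835801 to 102843609) had ratios of opposite sign. The other 7 genes of the cluster had at most 0.125 FPKM in either library, which for MMP12 was an estimated 4.00 reads in AS WT and 1.00 read in AS STRAP KO.

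The membrane-type MMPs are anchored at the cell surface, and 4 of the 6 were expressed. MMP14, which cuts fibrillar collagen and activates pro-MMP2, had 73.5 FPKM in the parental culture and 148 FPKM in the clone, 2.01-fold higher (log2 ratio 1.01). This ratio lay just past the 2-fold limit, and it was 0.91 after scaling to the upper quartile, short of the limit. MMP16, which also activates pro-MMP2, had 1.13 FPKM and 0.376 FPKM, 3.02-fold lower (log2 ratio -1.59). MMP17, which is held by a lipid anchor, had 16.4 FPKM in parental cells and 18.3 FPKM in the knockout. MMP15, another transmembrane form, had 1.91 FPKM and 1.72 FPKM. For these last genes the log2 ratios were 0.16 and -0.15, and that of MMP15 was 0.00 after scaling to TPM without mitochondrial rows. MMP24, a transmembrane form, had 0.355 and 0.0986 FPKM (39.0 and 11 reads), and MMP25, with a lipid anchor, had 0.949 and 0.461 FPKM (86.6 and 42.8 reads), both under the 1 FPKM limit. Summed over the 6 genes, the membrane-type level was 94.3 FPKM in AS WT against 169 FPKM in AS STRAP KO, most of it MMP14.

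MMP2 and MMP14 together made up most of the MMP level in each library, but their order changed. MMP2 accounted for 74.4% of the summed MMP FPKM in AS WT and 39.1% in AS STRAP KO, and MMP14 for 19.0% and 50.7%. The level of MMP2 was 3.91 times that of MMP14 in AS WT and 0.772 times in AS STRAP KO. Over all 22 genes the sum was 386 FPKM in the parental culture and 292 FPKM in the clone. Of the remaining secreted MMPs, MMP19 had 0.701 and 0.521 FPKM, and none of the other 5, or of the 2 matrilysins, exceeded 0.1 FPKM.

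**Figure D2:**
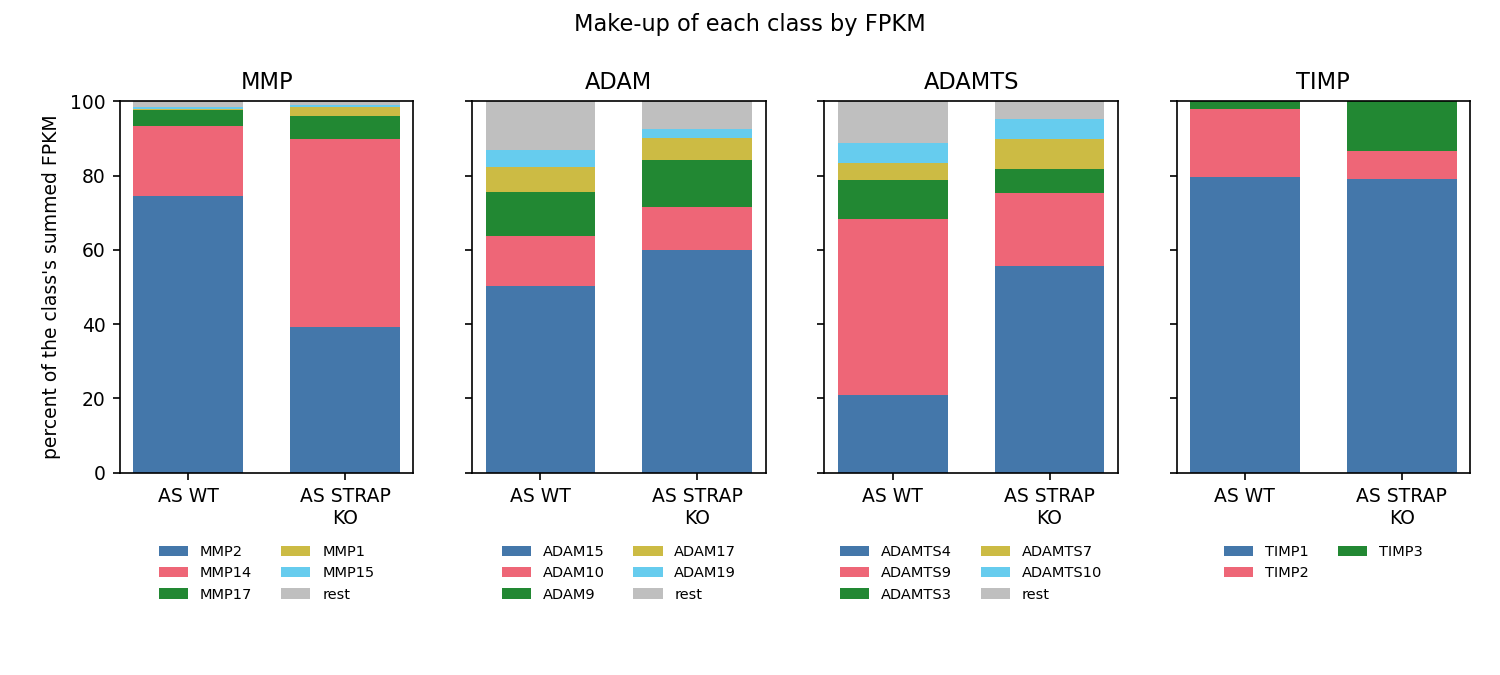
Percent of the summed FPKM of each class contributed by its leading genes, in AS WT (left bar) and AS STRAP KO (right bar) of each panel. MMP14 takes 19.0% of the MMP sum in AS WT and 50.7% in AS STRAP KO, ADAMTS4 takes 21.0% and 55.7% of the ADAMTS sum, and TIMP3 takes 1.99% and 13.3% of the TIMP sum.

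The ADAMs that keep an active catalytic site include the main sheddases of membrane proteins. Of the 12 such genes, 7 were expressed, 1 (14.3%) was lower and none was higher, with a median log2 ratio of 0.20. Over all expressed rows, 10.6% were lower and 8.31% were higher. ADAM15, a proteinase whose disintegrin domain binds integrins, had the highest level, with 122 FPKM in parental cells and 196 FPKM in the knockout (log2 ratio 0.69). Its row also holds the symbol of the overlapping gene DCST1, and the reads of these genes cannot be separated here. It made up 50.3% of the summed ADAM level in AS WT and 60.0% in AS STRAP KO.

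ADAM10, the main enzyme that releases the outer part of Notch receptors and of the amyloid precursor protein, had 32.4 FPKM in AS WT against 37.2 FPKM in AS STRAP KO (log2 ratio 0.20). ADAM17, which releases tumour necrosis factor and several ligands of the EGF receptor, had 16.6 FPKM and 18.8 FPKM (log2 ratio 0.17). ADAM9, another sheddase, had 28.6 FPKM and 42.0 FPKM (log2 ratio 0.56). These broadly acting sheddases were each under 1.5-fold higher in AS STRAP KO. ADAM8, best known from leukocytes, had 8.58 FPKM and 10.4 FPKM (log2 ratio 0.28), and ADAM19, a sheddase of neuregulin, had 10.8 FPKM and 8.02 FPKM (log2 ratio -0.43).

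ADAM12, which sheds heparin-binding EGF and cuts IGF-binding proteins, was the ADAM proteinase that passed the limit. ADAM12 had 9.46 FPKM in the parental culture and 3.17 FPKM in the clone, 2.99-fold lower (log2 ratio -1.58). It lies on the minus strand of chromosome 10 from 126012381 to 126388477. Below 1 FPKM, ADAM28 had 0.384 and 0.0629 FPKM, ADAM33 had 0.156 and 0.732 FPKM and ADAM21 had 0.451 and 0.673 FPKM.

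ADAMs without catalytic activity act as adhesion molecules and receptors, and 3 of the 8 were expressed, ADAM11, ADAM22 and ADAM23, which are neuronal proteins that bind secreted LGI proteins. ADAM23 had 5.61 FPKM in parental cells and 1.83 FPKM in the knockout, 3.06-fold lower (log2 ratio -1.62). ADAM22 had 3.51 FPKM and 2.26 FPKM (log2 ratio -0.63). ADAM11 had 3.57 FPKM and 5.60 FPKM (log2 ratio 0.65), so that these related receptors differed in sign. Over the 22 ADAM genes the sum was 242 FPKM in AS WT against 327 FPKM in AS STRAP KO.

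The ADAMTS proteoglycanases cut aggrecan, versican and related proteoglycans, and 3 of the 7 were expressed. Of these, 2 (66.7%) were lower and 1 (33.3%) was higher, beside 10.6% and 8.31% of all expressed rows. ADAMTS1 reached 1 FPKM in AS WT only. Of the 2 genes that reached it in both libraries, 1 was lower and 1 was higher. ADAMTS9, on the minus strand of chromosome 3 from 64515654 to 64688000, had 32.1 FPKM in the parental culture and 13.5 FPKM in the clone, 2.38-fold lower (log2 ratio -1.25). ADAMTS4, on the minus strand of chromosome 1 from 161184302 to 161199054, had 14.3 FPKM and 38.1 FPKM, 2.67-fold higher (log2 ratio 1.42). ADAMTS1, on the minus strand of chromosome 21 from 26835755 to 26845409, had 2.50 FPKM and 0.250 FPKM, 10.0-fold lower (log2 ratio -3.32). ADAMTS1 had the lowest ratio of the 28 genes, and its levels correspond to 217 to 327 reads in AS WT against 22.0 to 33.3 in AS STRAP KO.

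The proteoglycanases exchanged places while their summed level was similar, at 49.7 FPKM in parental cells and 52.2 FPKM in the knockout. The level of ADAMTS9 was 2.25 times that of ADAMTS4 in AS WT and 0.354 times in AS STRAP KO. ADAMTS9 made up 47.2% of the summed ADAMTS FPKM in AS WT and 19.7% in AS STRAP KO, and ADAMTS4 made up 21.0% and 55.7%. ADAMTS15 was under the limit with 0.765 and 0.301 FPKM (117 and 46.6 reads), and ADAMTS5, known as an aggrecanase of cartilage, had 0.00794 FPKM in AS STRAP KO and was listed at 0 in AS WT.

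All 3 procollagen N-propeptidases, which trim fibrillar procollagens before fibrils form, were expressed. ADAMTS3, which also takes part in the activation of VEGFC, had 7.20 FPKM in AS WT against 4.39 FPKM in AS STRAP KO (log2 ratio -0.71). ADAMTS14 had 2.60 FPKM and 1.05 FPKM, 2.48-fold lower (log2 ratio -1.31). ADAMTS2 had 0.414 FPKM and 1.03 FPKM, 2.49-fold higher (log2 ratio 1.32), which corresponds to 20.1 to 71.6 reads in AS WT against 50.7 to 181 in AS STRAP KO. ADAMTS2 passed the filter only by its level in AS STRAP KO, as MMP3, MMP16 and ADAMTS1 had passed by their level in AS WT, so a difference was built into their selection. Outside these subgroups, ADAMTS7, which cuts cartilage oligomeric matrix protein, had 3.13 FPKM and 5.46 FPKM (log2 ratio 0.80), and ADAMTS10, which binds fibrillin, had 3.65 FPKM and 3.78 FPKM (log2 ratio 0.05, and -0.05 with upper quartile scaling). ADAMTS6 had 0.895 and 0.367 FPKM, and ADAMTS17 had 0.467 and 0.101 FPKM. The sum of the 19 ADAMTS genes was 68.1 FPKM in the parental culture and 68.5 FPKM in the clone.

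TIMP1, a secreted inhibitor that is weak against the membrane-type MMPs, had the highest level of the 67 genes, with 548 FPKM in both libraries. TIMP2, which inhibits MMPs and also bridges MMP14 and pro-MMP2 at the cell surface, had 126 FPKM in parental cells and 53.2 FPKM in the knockout, 2.37-fold lower (log2 ratio -1.25). The row of TIMP2, a gene on the minus strand of chromosome 17 from 78852977 to 78925387, also holds the overlapping gene CEP295NL. TIMP3, which binds to the matrix and inhibits several ADAM and ADAMTS enzymes as well as MMPs, had 13.7 FPKM and 92.4 FPKM, 6.73-fold higher (log2 ratio 2.75). The inhibitors therefore differed in 3 ways, with TIMP1 equal (log2 ratio -0.10 to 0.15 over the scalings tried), TIMP2 lower and TIMP3 higher, and TIMP4 was listed at 0 in both libraries.

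TIMP3 had the highest ratio of the 28 genes and ranked 12 in AS WT and 5 in AS STRAP KO. It has 1 annotated transcript, with an estimated 1585 and 10852 reads. The gene lies on the plus strand of chromosome 22 from 32801705 to 32863041, within the span of SYN3 on the opposite strand, and SYN3 had 0.0927 FPKM in AS STRAP KO and was listed at 0 in AS WT. TIMP1 took 79.6% of the summed TIMP level in AS WT and 79.0% in AS STRAP KO, TIMP2 took 18.4% and 7.67%, and TIMP3 took 1.99% and 13.3%. The TIMP sum was 688 FPKM in AS WT against 693 FPKM in AS STRAP KO.

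The ratios between enzymes and inhibitors followed from these levels. The level of MMP2 was 2.28 times that of TIMP2 in AS WT and 2.14 times in AS STRAP KO, since both were lower by a similar factor. In contrast, the level of MMP14 was 0.582 times that of TIMP2 in AS WT and 2.78 times in AS STRAP KO, and it was 5.36 and 1.60 times that of TIMP3. The summed TIMP level was 1.78 times the summed MMP level in AS WT and 2.38 times in AS STRAP KO. These are ratios of RNA levels and do not measure active enzyme or free inhibitor.

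**Figure D3:**
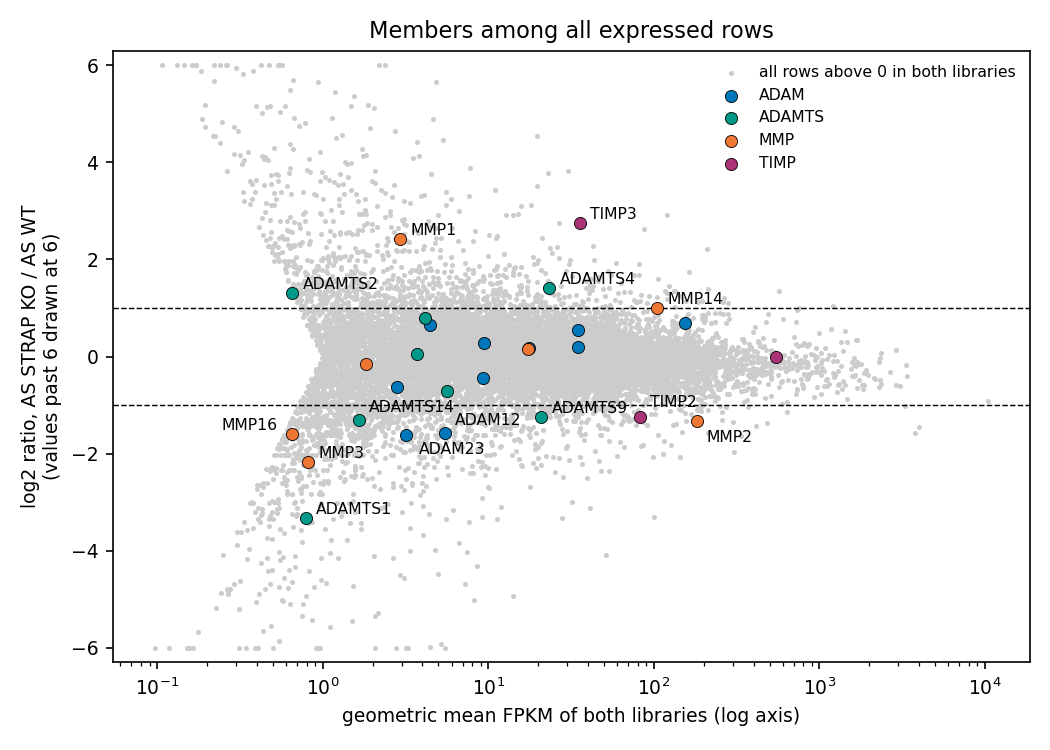
Log2 ratio (AS STRAP KO over AS WT) against the geometric mean FPKM of both libraries (log axis) for all expressed rows above 0 in both (grey) and for the 28 family genes (coloured by class), with dashed lines at the 2-fold limits. TIMP3 at 2.75 and MMP2 at -1.33 lie outside the limits at levels where most rows lie inside them, while ADAMTS1, MMP3 and MMP16 lie at low levels where the rows spread widely.

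Of the 39 genes under 1 FPKM, 14 were listed at 0 in both libraries. Of the other 25, 19 had the larger value in AS WT and 6 in AS STRAP KO, and 8 were listed at 0 in AS STRAP KO only against 1 in AS WT only. Among all rows under 1 FPKM in both libraries and above 0 in at least 1, 6512 had the larger value in AS WT and 4389 in AS STRAP KO. A gene at 1 FPKM corresponds to 26.3 reads per kilobase of transcript in AS WT and 26.7 in AS STRAP KO, so values under 0.1 FPKM rest on few reads.

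The promoters of the family were compared with those of other genes, as sequence shared by members that the choice by symbol did not use. RefSeq promoters on GRCh38.p14, taken as the 250 bases before the gene start, were matched for 38 of the 67 genes, with 39 promoters. A GC box (GGGCGG on either strand) was found in 25 of the 39 family promoters (64.1%) and in 42.6% of all 35116 promoters. Within the family it was found in 16 of 18 promoters (88.9%) of expressed genes and in 9 of 21 (42.9%) of those under 1 FPKM. The 35116 promoters were not split by expression, so the values of expressed family genes have no background of other expressed genes here. The TATA motif TATAAA was found in 1 of 18, in 6 of 21 and in 10.7% of all, and the AP-1 motif TGACTCA in 0 of 18, in 1 of 21 and in 4.20% of all. No promoter was matched for MMP1, MMP2, MMP3, MMP16, ADAMTS1, ADAMTS4, ADAMTS9 or TIMP2, all past the 2-fold limit, so the motifs of these genes are not known here. The median number of CG steps was 29.5 in expressed family genes, 6 in those under 1 FPKM and 11 over all promoters. None of these motifs contains another, and a match describes letters only. The GC box was found among lower and higher genes alike, in 3 of 3 lower genes with a promoter (ADAM12, ADAM23 and ADAMTS14), in 3 of 3 higher genes (ADAMTS2, MMP14 and TIMP3) and in 10 of 11 that were neither.

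The following promoters are examples and do not stand for their groups, as 9 of 21 promoters of genes under 1 FPKM held a GC box. TIMP3 (chr22:32801455-32801704, plus strand) and MMP14 (chr14:22836335-22836559, plus strand, cut at the annotated gene start) are higher genes. ADAM12 (chr10:126388478-126388727, minus strand) is a lower gene. MMP10 (chr11:102780629-102780878, minus strand) is a gene of the chromosome 11 cluster under 1 FPKM. Each reads 5′ to 3′ on the strand of its gene, with GC boxes in either orientation and TATAAA in capitals.
TIMP3: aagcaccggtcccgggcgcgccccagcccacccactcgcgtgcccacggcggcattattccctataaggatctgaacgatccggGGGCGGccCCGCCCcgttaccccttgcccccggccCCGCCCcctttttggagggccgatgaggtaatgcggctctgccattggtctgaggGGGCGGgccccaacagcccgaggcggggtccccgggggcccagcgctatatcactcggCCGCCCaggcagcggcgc
MMP14: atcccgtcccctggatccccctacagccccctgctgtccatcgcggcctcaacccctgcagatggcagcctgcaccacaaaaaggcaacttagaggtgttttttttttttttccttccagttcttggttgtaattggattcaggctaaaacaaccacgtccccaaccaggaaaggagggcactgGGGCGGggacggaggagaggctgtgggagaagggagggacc
ADAM12: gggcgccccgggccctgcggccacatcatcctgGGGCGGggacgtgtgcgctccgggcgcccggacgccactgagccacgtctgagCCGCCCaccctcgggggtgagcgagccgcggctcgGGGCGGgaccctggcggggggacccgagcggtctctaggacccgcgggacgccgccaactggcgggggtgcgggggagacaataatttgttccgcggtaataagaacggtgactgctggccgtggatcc
MMP10: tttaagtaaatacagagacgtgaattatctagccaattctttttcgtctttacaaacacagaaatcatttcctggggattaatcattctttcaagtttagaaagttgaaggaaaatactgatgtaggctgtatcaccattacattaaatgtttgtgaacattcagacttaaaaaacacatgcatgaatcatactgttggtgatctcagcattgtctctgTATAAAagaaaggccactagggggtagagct
TIMP3 held 5 GC boxes, ADAM12 held 3 and MMP14 held 1, while MMP10 held 1 TATAAA and no GC box. The number of CG steps was 26 in TIMP3, 31 in ADAM12, 6 in MMP14 and 2 in MMP10. MMP14, though expressed, was thus near the median of 6 for family genes under 1 FPKM.

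Genes that act on or with these enzymes were compared between the libraries in 10 lists with 114 genes, of which 80 were expressed, 14 (17.5%) were lower and 7 (8.75%) were higher, beside 10.6% and 8.31% of all expressed rows, with a median log2 ratio of -0.12. Among the 74 that reached 1 FPKM in both libraries, 10 (13.5%) were lower and 5 (6.76%) were higher, against 5.74% and 4.87% of all such rows. The higher share was thus near that of all expressed rows. A2M, PCSK1, SERPINB2, ITGB3, COL3A1 and FAP reached 1 FPKM in 1 library only, so for these genes, too, a difference was built into the selection. The list of other inhibitors and related proteins had the lowest median, at -1.29, with 5 of 7 expressed genes lower and 1 higher. This median was the value of PCOLCE2, and the list mixes MMP inhibitors with proteins of other functions. SPOCK1 and TFPI2 had log2 ratios of -2.75 and -1.43, against -0.23 for RECK and 3.13 for A2M. SPOCK1, a proteoglycan that inhibits membrane-type MMPs, had 8.01 FPKM in the parental culture and 1.19 FPKM in the clone. TFPI2, an inhibitor of plasmin and other serine proteinases, had 3.06 FPKM and 1.13 FPKM. PCOLCE, which had 775 and 302 FPKM, and PCOLCE2, which had 20.3 and 8.29 FPKM, are enhancers of procollagen C-proteinase rather than inhibitors of MMPs. CST3, a cysteine proteinase inhibitor, had 146 FPKM and 70.3 FPKM. RECK, a membrane-anchored MMP inhibitor, had 4.31 FPKM and 3.66 FPKM, and A2M, a plasma proteinase trap, had 0.123 FPKM and 1.08 FPKM.

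Proprotein convertases and the plasminogen system activate many of these enzymes. Of 5 expressed proprotein convertases, 1 (20.0%) was lower and 1 (20.0%) was higher (median 0.25), beside 10.6% and 8.31% of all expressed rows. FURIN, which activates MMP14 and many ADAMs, had 45.1 FPKM in parental cells and 59.3 FPKM in the knockout, while PCSK4, a convertase known from germ cells, had 9.90 and 4.13 FPKM and PCSK1, the convertase of endocrine granules, had 0.255 and 1.10 FPKM. Of 8 expressed genes of the plasminogen system, which activates several pro-MMPs, 1 (12.5%) was lower and none was higher (median -0.13). PLAU, urokinase, had 42.6 and 76.6 FPKM, and the row of SERPINB2, an inhibitor of urokinase, which also holds SERPINB10, had 5.60 and 0.520 FPKM. BMP1, the one expressed astacin proteinase of 5 and a procollagen C-proteinase, had 33.6 and 30.5 FPKM.

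Another list held iRhoms, which carry ADAM17 to the cell surface, and tetraspanins, of which some carry ADAM10 and others are general membrane organisers. All 13 were expressed, none was lower and 2 (15.4%) were higher (median -0.10), beside 10.6% and 8.31% of all expressed rows. TSPAN15 and TSPAN33, tetraspanin partners of ADAM10, had 10.7 and 1.76 FPKM in AS WT and 27.3 and 5.14 FPKM in AS STRAP KO. TSPAN14, another such partner, had 11.1 and 16.9 FPKM, and the iRhom genes RHBDF1 and RHBDF2, which guide ADAM17, had 36.3 and 18.5 FPKM in AS WT and 30.7 and 28.2 FPKM in AS STRAP KO. The list thus included genes past the 2-fold limit, while ADAM10 and ADAM17 were not. Of 19 expressed shed membrane proteins, 3 (15.8%) were lower and 3 (15.8%) were higher (median -0.05). EREG, a ligand of the EGF receptor, had 11.5 and 50.7 FPKM, NOTCH1, a receptor cut by ADAM10, had 7.09 and 18.0 FPKM, CX3CL1, a membrane-bound chemokine, had 5.51 and 1.87 FPKM, and CDH2, the neural cadherin, had 14.5 and 6.12 FPKM.

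Of 13 substrates of ADAMTS enzymes, 4 were expressed, 1 (25.0%) of these was lower and none was higher (median 0.16). Over all expressed rows, 10.6% were lower and 8.31% were higher. The lower gene was COL3A1, a fibrillar collagen, with 17.8 FPKM in AS WT against 0.242 FPKM in AS STRAP KO. The ADAMTS-like genes, which resemble ADAMTS enzymes without the catalytic domain, had 4 of 7 expressed and none past the limit (median -0.45). Of 10 expressed cysteine and serine proteinases of matrix turnover, 1 (10.0%) was lower and none was higher (median -0.05). The lower one was FAP, a membrane serine proteinase of stromal cells, with 9.22 and 0.0956 FPKM. Of the 9 that reached 1 FPKM in both libraries, 0 were lower. Of 10 expressed inducers of MMPs and receptors that clear them, 2 (20.0%) were lower and none was higher (median -0.22). CAV1, the caveolin of cell surface pits, had 12.6 and 4.57 FPKM, and the row of the integrin gene ITGB3, shared with overlapping genes, had 2.65 and 0.696 FPKM. BSG, the surface protein that induces MMPs in neighbouring cells, had 486 and 255 FPKM.

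**Figure D4:**
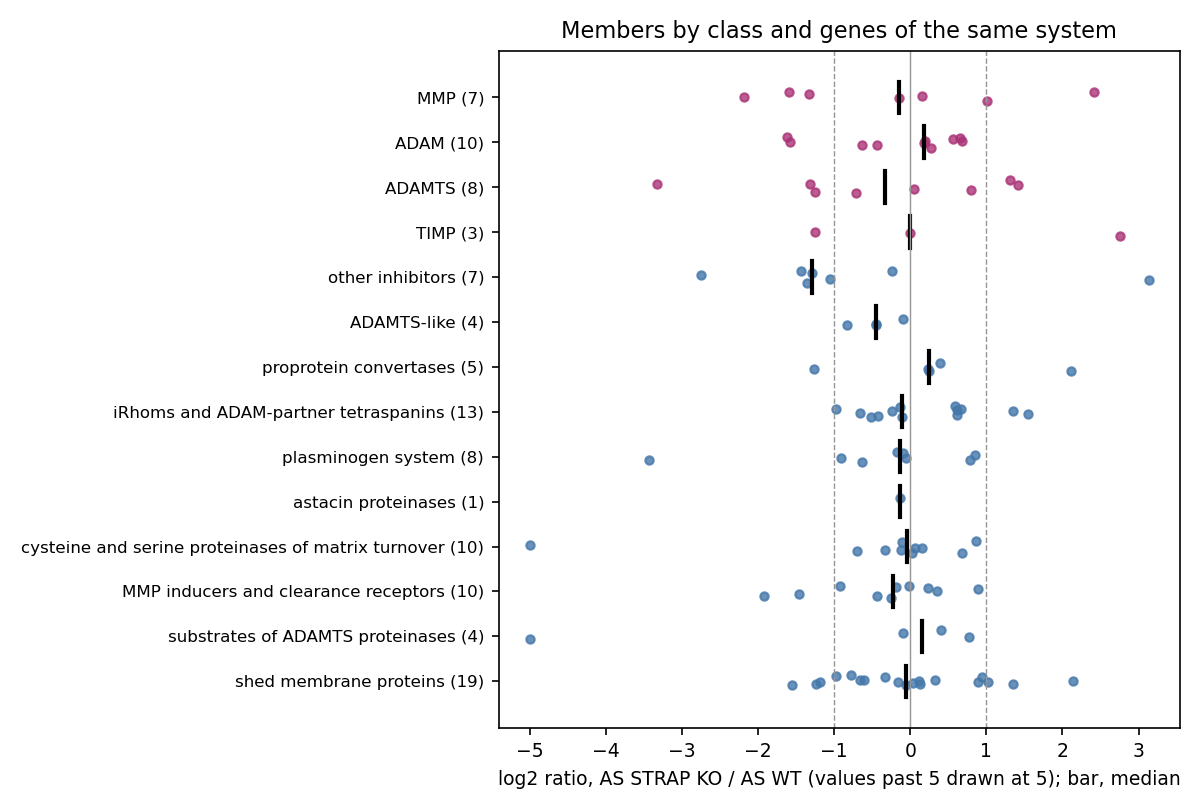
Log2 ratio (AS STRAP KO over AS WT) for the expressed genes of each class (upper rows) and of each list of related genes (lower rows), with the number of genes in brackets, a bar at the median and dashed lines at the 2-fold limits; values past 5 are drawn at 5. The medians lie between -0.45 and 0.25 except that of the mixed list of other inhibitors and related proteins, at -1.29, which is the value of PCOLCE2.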

How the data were processed

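Poly A selected RNA of the parental and knockout cells was reverse transcribed and sequenced as single-end 75 bp reads after preparation with a strand-specific kit. The submitters' processing notes name bcl2fastq 2.18.0.12, STAR 2.7.6, Cufflinks 2.2.1 and Cuffdiff, and the methods name a different STAR release and GRCh38 with GENCODE release 32. The authors deposited FPKM values, normalized for transcript length and mapped reads, in 62573 rows and 1 column per condition. The methods state that experiments had several biologic replicates, but whether replicates were pooled into these columns was not stated in the sources used, and each column is called a library. No Cuffdiff comparison was used.

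The plain ratio of the deposited values was taken on the log2 scale without a pseudocount, and a 0 in 1 library counted as past 2-fold. No test was possible with 1 library per condition. The 67 genes held 77 rows. Only ADAM32, of 9 genes with several rows, had more than 1 row above 0. The computation was tested on simulated data. Values at 0 are given as listed at 0, with no fold.

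Named were STRAP, every expressed family gene, those above 0.3 FPKM by name and other family genes by counts or range, up to 4 genes per list with the largest ratio past 2-fold, and FURIN, RECK, BSG, PLAU, RHBDF1, RHBDF2, TSPAN14 and BMP1. PCOLCE2 and CST3, and low genes of the chromosome 11 cluster and of the subgroups, were named after their values were seen. Results of some genes that the rule or the marker lists take are not reported here. The family and the lists were chosen with earlier results of these data known.

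Coordinates and transcript lengths came from GENCODE 44 on GRCh38. Reads were estimated from the steps between low values of genes with 1 transcript of at least 1500 bases, using lengths shortened by 200 bases. Of the 368 values in AS WT and 320 in AS STRAP KO, 94.8% and 93.8% lay within 0.1 of a whole read. Reads of genes with several transcripts are given as the range over transcript lengths. Alternatives were other filters, pseudocounts of 1 and 0.1 FPKM, other scalings, other ways to treat shared or repeated rows, and limits of 1.5-fold and 3-fold. Python 3.11.15, numpy 2.4.6, pandas 2.3.3 and matplotlib 3.10.9 were used.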

Additional observations from a re-analysis of the deposited data

How the results depend on the processing

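The counts moved with the filter for low values, the fold limit, the pseudocount and the scaling. The 9 lower genes became 15 with at least 0.3 FPKM in 1 library, 5 with at least 5 FPKM, 26 with no filter and 4 with a 3-fold limit. The 5 higher genes became 9 with no filter, 3 with a pseudocount of 1 FPKM, 3 with upper quartile scaling, 8 with a 1.5-fold limit and 2 with a 3-fold limit. The median log2 ratio of 0.02 became -0.29 with at least 0.3 FPKM, 0.19 with at least 5 FPKM, -0.71 with no filter, 0.13 with TPM, 0.15 with TPM without mitochondrial rows and -0.10 with upper quartile scaling. These scalings shifted every log2 ratio by 0.11, 0.15 and -0.10. The share of lower genes among those past 2-fold was 64.3%, against 74.3% with no filter and 75.0% with upper quartile scaling. Over all expressed rows, too, more were lower (1434) than higher (1124) under the main setting. Counts over all rows were not made with no filter or with upper quartile scaling, so those shares have no background. With a pseudocount of 1 FPKM, MMP14 (1.00, just under the limit), MMP3 (-0.99), MMP16 (-0.63), ADAMTS14 (-0.82) and ADAMTS2 (0.52) no longer passed 2-fold. MMP3, MMP16, ADAMTS1 and ADAMTS2 were not counted when both libraries had to reach 1 FPKM. MMP2, TIMP2, ADAM12, ADAM23, ADAMTS9, MMP1, ADAMTS4 and TIMP3 stayed past 2-fold under each scaling, filter and pseudocount. No paired analysis was possible because each condition had 1 library. Levels near 1 FPKM can rest on few reads and were read only as values.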

Other observations

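Related transcripts outside the choice by symbol were also read. The antisense RNA MMP25-AS1 had 16.5 FPKM in the parental culture and 12.1 FPKM in the clone, far above MMP25 itself, which had 0.949 and 0.461 FPKM. ADAMTS9-AS2, antisense to ADAMTS9, had 0.857 and 0.275 FPKM (log2 ratio -1.64), beside a log2 ratio of -1.25 for ADAMTS9, while ADAMTS9-AS1 and MMP2-AS1 were listed at 0 in both libraries. The pseudogene ADAMTS7P4 had 0.280 FPKM in AS STRAP KO and was listed at 0 in AS WT. TIMP1 lies on the opposite strand within the span of SYN1, a synapsin gene, and the row that SYN1 shares with CFP had 3.20 and 5.07 FPKM. MMP23B, an MMP gene whose symbol ends in a letter, had 0.403 and 0.320 FPKM. These genes were chosen after their values were seen.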
